A study of Homo sapiens with 14 samples.

Results

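Of 63 protein-coding cancer-testis genes, 6 were expressed in xenografts of the bladder cancer line UMUC3. MAGEA6, MAGEA4, MAGEC2, MAGEA10 and MAGEA3 were transcribed in every group and PRAME at a lower level. In edgeR PRAME was also the 1 member of 9 tested called lower in libraries labelled FASN knockdown, in both media. Of all tested genes 0.177% were called lower in regular medium and 0.74% after cigarette smoke medium. The call in regular medium was close to the threshold and ended when any of its 6 libraries was omitted. The 63 genes were chosen by symbol: the numbered members of the MAGEA, MAGEB, MAGEC, GAGE, PAGE, XAGE, SSX, CTAG and CSAG families with a protein-coding transcript, and PRAME. They are 63 of 62749 genes in the files, of which 19644 are protein coding. There were 12 MAGEA, 11 MAGEB, 3 MAGEC, 11 GAGE, 6 PAGE, 5 XAGE, 8 SSX, 3 CTAG and 3 CSAG genes. A further 16 genes with symbols of these families have no protein-coding transcript and were not members. All but 1 member lie on chromosome X, and PRAME lies on chromosome 22.

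The study compared xenografts grown in mice from UMUC3 control cells, titled as carrying a control sh construct, and from FASN knockdown cells. FASN is fatty acid synthase, which makes palmitate. The cells came from regular medium (3 control and 3 FASN knockdown libraries) or had been pre-exposed to 10% cigarette smoke medium, CSM, before engraftment (4 control and 4 FASN knockdown libraries). The pre-exposure statement stands on the labels of all 14 samples, so the medium was taken from the titles, and the labels do not say how FASN was knocked down, how many clones were used or which mouse strain was the host. Nor do they tell whether each library stands for its own mouse, and the p-values therefore reflect library-to-library spread alone, part of which may be technical.

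The summed counts per library were 15810287 to 45209466, and 7SL RNA of the signal recognition particle took 2.64% to 25.6% of them. Replicate 3 of the control after CSM and replicate 2 of the FASN knockdown were above 15%. FASN stood at 22.1% to 29.1% of the control mean in the 3 knockdown libraries from regular medium. In those labelled FASN knockdown after CSM it stood at 50.9%, 38.5%, 69.8% and 111%, so that replicate 4 goes against its label, the groups overlap and FASN itself was not called lower after CSM (log2 fold change -0.57, edgeR adjusted p = 0.288). Of the markers fixed for the line, VIM and CD44 were high (means of 1999 and 396.7 CPM) and the epithelial genes CDH1, EPCAM and KRT19 were below 1 CPM on average. The epithelial keratin genes KRT18, KRT8 and KRT7 went the other way, with means of 145.6, 92.57 and 2.248 CPM. CDH2 averaged 78.47 CPM. Of 10 urothelial markers, 5 reached 1 CPM in a group, and UPK3A and KRT20, of differentiated urothelium, had no counts. The 5 were TP63, KRT5, PPARG, UPK1B and GATA3, with means of 10.99, 4.751, 3.684, 2.35 and 1.11 CPM. TP63 ranged from 0.346 to 65.1 CPM over the libraries. None of 10 germ cell markers reached 1 CPM in a group, and the protamine genes PRM1 and PRM2 had no counts in any library. Mouse transcripts are not part of the files, so host cells were not measured. In a bulk sample fewer expressing cells and less RNA per cell cannot be told apart.

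Cancer-testis genes are active in male germ cells and silent in most other adult tissues, where methylation of their promoters keeps them off, and many tumours switch some of them on. Proteins of the MAGE families share a MAGE homology domain through which they bind RING ubiquitin ligases and direct them to substrates. PRAME is a leucine-rich repeat protein that acts with a cullin ligase and represses retinoic acid receptor signalling. Peptides of several of these proteins are presented to T cells, which is how the first of them were found.

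The promoter sequences are shown because expressed and silent MAGEA members carry the same block. RefSeq windows (GRCh38.p14) of 250 bases before and 50 bases after a start site were found for 54 of the 63 members, and not for 9, among them MAGEA10 and MAGEA1. The windows of MAGEA3 and MAGEA6 were the same in 300 of 300 bases. The capitals mark the letters GGATGTG, which hold the core of an ETS factor site, and all stretches run 5′ to 3′ on the strand of the gene. The first 4 belong to expressed members and the last 3 to members without expression.
MAGEA3: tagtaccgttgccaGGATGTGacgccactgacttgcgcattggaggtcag
MAGEA6: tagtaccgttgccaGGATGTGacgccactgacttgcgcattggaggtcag
MAGEA4: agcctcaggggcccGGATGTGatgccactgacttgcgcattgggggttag
MAGEC2: acggcagggttcccGGATGTG
MAGEA2: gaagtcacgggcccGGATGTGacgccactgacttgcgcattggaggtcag
MAGEA9: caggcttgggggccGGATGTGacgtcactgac
MAGEA12: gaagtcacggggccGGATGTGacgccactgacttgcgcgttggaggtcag

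The stretches lie at chrX:152698694-152698743 (MAGEA3, plus strand), chrX:152769740-152769789 (MAGEA6, minus), chrX:151918231-151918280 (MAGEA4, plus), chrX:142205290-142205310 (MAGEC2, minus), chrX:152753867-152753916 (MAGEA2, minus), chrX:149781898-149781929 (MAGEA9, plus) and chrX:152733731-152733780 (MAGEA12, plus). GGATGTG on either strand was in all 16 windows of the 10 MAGEA members with a window, in 36.1% of the 72 windows of all members, and in 4.29% of the 35116 windows of all genes. The letters CTTGCGCA follow GGATGTG in the stretches shown for MAGEA3, MAGEA6, MAGEA4 and MAGEA2, and not in those of MAGEA9 and MAGEA12. They were in all 7 windows of the 3 expressed MAGEA genes with a window, in 3 of the 9 windows of the others, and in 0.809% of all windows. By gene CTTGCGCA was in 3 of 3 expressed and 2 of 7 other MAGEA genes, where 5 of the 7 expressed windows belong to MAGEA4 and the other 2 are the same sequence. Both searches were chosen after the sequences had been seen. The letters CCGGAA, another ETS core, were searched on both strands like the others and were in 6.94% of the members' windows (3 of 11 expressed, from MAGEA3, MAGEA6 and PRAME, and 2 of 61 others) and in 17.2% of all windows. The median number of CG pairs in a window was 13.0 for expressed members, 12.0 for the others and 14.0 for all genes.

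PRAME has no GGATGTG in its 3 windows. The 120 bases before the first of its RefSeq starts (chr22:22559266-22559385, minus strand, GRCh38.p14) are shown with each CG pair in capitals, the pair at which methylation acts.
PRAME: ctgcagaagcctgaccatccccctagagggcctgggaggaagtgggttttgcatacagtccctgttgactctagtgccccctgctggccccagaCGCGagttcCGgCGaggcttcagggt
All 4 CG pairs of this stretch lie in its last part, next to the start. The files hold no methylation measurement.

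Expression was taken as a group mean of at least 1 CPM, the count scaled to a common library total with TMM factors. By this rule 6 of 63 members, 9.52%, were expressed, against 66.6% of all protein-coding genes. They held 99.5% of the 175086 counts on members. Of the rest 17 had no counts in any library, and 41 of the 63 had at most 10 counts over the 14 libraries together. A count of 0 in a library allows a level of up to 0.061 to 0.254 CPM (3 counts), counting error only. For 29 of the 63 members under 50% of the 31-base stretches of their transcripts are in no other gene's transcripts, and for 8 none are. Counts and zeros of such single copies also depend on how reads were divided among the copies. The highest value of any library was 0.177 CPM for a PAGE gene, 0.204 CPM for XAGE, 0.171 CPM for SSX, 0.274 CPM for CTAG, 0.640 CPM for CSAG and 0.678 CPM for GAGE and for MAGEB genes. The CTAG genes include CTAG1B, which encodes NY-ESO-1, and CTAG1B had 36 counts in all. GAGE2A had 33 counts, 30 of them in replicate 1 of the control (0.678 CPM), and was singled out after its values were seen. Only 7.92% of the 31-base stretches of CTAG1B and 6.63% of those of GAGE2A are in no other gene, so neither count is sure to belong to that copy. The plot of all members by family shows the gap between the 6 expressed genes and the others.

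**Figure D1:**
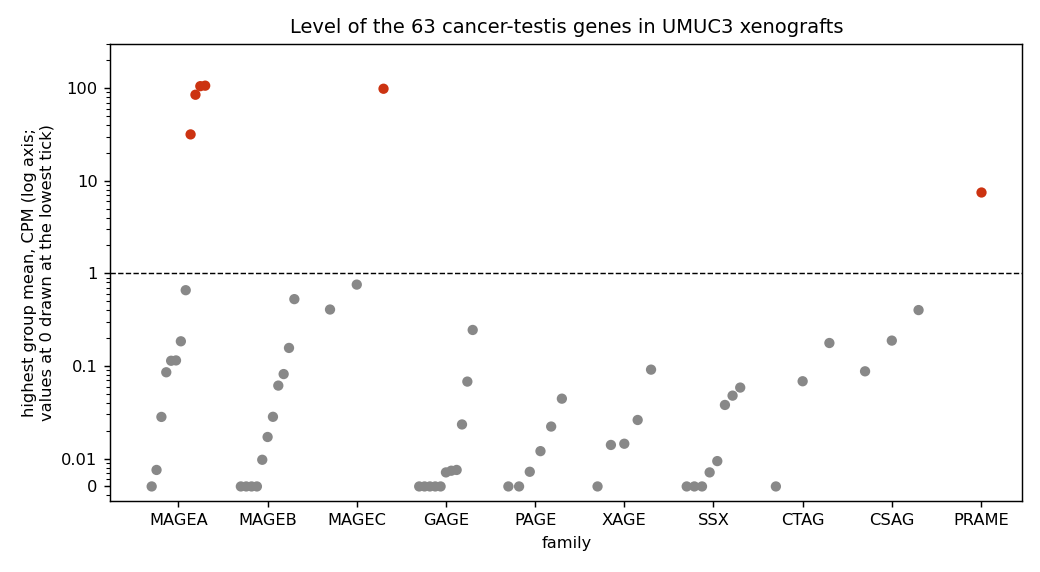
Highest of the 4 group means of each of the 63 members, in CPM on a log axis, by gene family; the dashed line is 1 CPM and red points are the 6 expressed members. PRAME, the lowest of the 6, stands at 7.62 CPM and MAGEC3, the next below the line, at 0.756 CPM.

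The 3 highest members below the line were MAGEC3, MAGEA1 and MAGEB10, and these are the other 3 that passed the filter for testing. MAGEC3 (chromosome X, 141838316 to 141897832), a relative of MAGEC2, had 0.588, 1.16 and 0.526 CPM in the control libraries and 0.035, 0.424 and 0.029 CPM in the FASN knockdown libraries. After CSM it had 0.723, 0.835, 0.539 and 0.698 CPM in control libraries and 0.296, 0, 0.028 and 0 CPM in those labelled FASN knockdown. The knockdown groups were below the controls without overlap in either medium, on 87 counts against 7 in regular medium and 102 against 11 after CSM. Of all tested genes, 7.05% were lower without overlap in regular medium and 7.34% after CSM, and of the 9 tested members 3 (PRAME, MAGEC3 and MAGEA1) and 2 (PRAME and MAGEC3). MAGEA1 (chromosome X, 153179285 to 153183880), the first member of the family to be described, had 1.42, 0.366 and 0.184 CPM in control libraries and 0.105, 0 and 0 CPM in FASN knockdown libraries, which is 83 counts against 3. After CSM its groups overlapped, with 0.202 to 0.698 CPM in controls and 0 to 0.285 CPM in libraries labelled knockdown. MAGEB10 (chromosome X, 27807990 to 27823014) went the other way, with 0.105 to 0.225 CPM in control libraries and 0.350 to 0.678 CPM in FASN knockdown libraries from regular medium, 20 counts against 37, where 4.8% of all tested genes were higher without overlap. MAGEC3, MAGEA1 and MAGEB10 passed the filter through the groups where they were high, so their differences are no support for a pattern in either direction. None of the 3 was called in either medium by the quasi-likelihood test of edgeR, in which the Benjamini-Hochberg adjusted p of MAGEC3 was 0.600 in regular medium and 0.156 after CSM and that of MAGEA1 was 0.423 and 0.305. DESeq2 called MAGEC3 after CSM (adjusted p = 0.0424).

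PRAME RNA was low in every library of the FASN knockdown groups. PRAME (ENSG00000185686.18) lies on chromosome 22 from 22547701 to 22559361 on the minus strand (GRCh38, GENCODE 29), among the segments of the immunoglobulin lambda locus. In regular medium it stood at 10.1, 6.99 and 5.79 CPM in the control libraries and at 1.30, 2.63 and 1.75 CPM in the FASN knockdown libraries. After CSM it stood at 3.58, 5.39, 5.98 and 5.22 CPM in control libraries and at 0.532, 0.752, 0.954 and 0.874 CPM in those labelled FASN knockdown. No knockdown library reached its lowest control in either medium, and replicate 4 after CSM, whose FASN level was 111% of control, lay within the PRAME range of the 3 others of its group.

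The mean in regular medium was 7.62 CPM ± 2.22 (SD, n = 3) in controls and 1.89 CPM ± 0.676 (SD, n = 3) in the knockdown, 24.8% of control. PRAME fell by 2.03 on the log2 scale (SE 0.38, 95% interval -2.84 to -1.23, adjusted p = 0.0407 in edgeR). It was 1 of 9 tested members called there, where 0.204% of all tested genes were called in either direction and 0.177% were called lower. The two-sided exact permutation test gave p = 0.1, the smallest value that 3 against 3 libraries allow. This call was close to the threshold. Omitting any of the 6 libraries ended it, with edgeR adjusted p from 0.0583 (knockdown replicate 2 omitted) to 0.188 (control replicate 1 omitted), while the log2 fold change stayed between -2.30 and -1.77; omitting replicate 2 or 4 of the control after CSM, or replicate 3 or 4 of the group labelled FASN knockdown after CSM, ended it as well (0.0511 to 0.0712). It also ended without the libraries over 15% 7SL (log2 fold change -2.32, edgeR adjusted p = 0.0667), with upper-quartile factors (edgeR adjusted p = 0.0557) and with only these groups in the fit (edgeR adjusted p = 0.260).

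After CSM the mean was 5.04 CPM ± 1.03 (SD, n = 4) in controls and 0.778 CPM ± 0.184 (SD, n = 4) in libraries labelled FASN knockdown, 15.4% of control, which took that group below 1 CPM. PRAME fell by 2.69 on the log2 scale (SE 0.34, 95% interval -3.40 to -1.97, edgeR adjusted p = 0.00136), and the two-sided exact permutation test gave p = 0.0286, the smallest value for 4 against 4. Again it was 1 of 9 tested members called, where 1.17% of all tested genes were called and 0.74% were called lower. The call held whichever of the 8 libraries was omitted, with edgeR adjusted p between 0.00197 and 0.00838. Without replicate 4 the log2 fold change was -2.74 (adjusted p = 0.00755), and without that replicate and the libraries over 15% 7SL it was -2.65 (adjusted p = 0.0113).

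**Figure D2:**
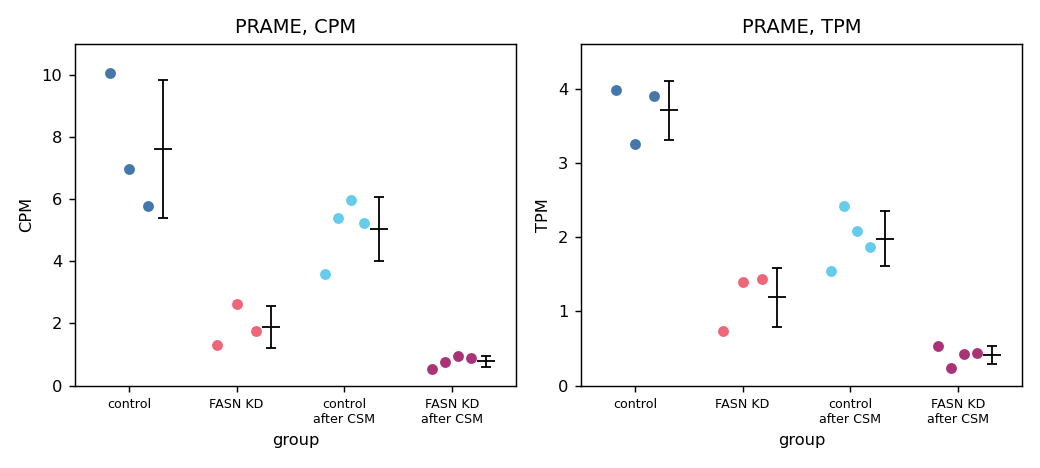
PRAME in each of the 14 libraries by group, in CPM on the left and in TPM on the right; dots are libraries and black bars the mean ± SD (n = 3, 3, 4 and 4). In both media and on both scales every library labelled FASN knockdown, including 1 with FASN at 111% of control, lies below every control of its medium.

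The size of the fall depended on the scale. In TPM, which is per length, the means were 3.71 ± 0.399 in controls and 1.19 ± 0.391 in the knockdown (SD, n = 3 each), and 1.98 ± 0.372 and 0.410 ± 0.122 after CSM (SD, n = 4 each), again without overlap. In limma on log2(TPM + 1) PRAME was at -1.12 in regular medium (adjusted p = 0.607) and at -1.07 after CSM (adjusted p = 0.108), and neither was called. The median of all genes moved by -0.24 and by 0.52 in that fit, so relative to it PRAME stood at -0.88 and -1.59. Adding 1 compresses changes at such low levels. On log2(TPM + 0.1) PRAME was at -1.61 and -2.04 (limma adjusted p = 0.805 and 0.0952), which is -1.25 and -2.68 relative to the median of all genes. With an offset for the effective transcript length the log2 fold change was -1.17 in regular medium (edgeR adjusted p = 0.592) and -3.15 after CSM (edgeR adjusted p = 0.00584). The files divide the PRAME counts over 11 of 14 transcripts. PRAME-202, of 2196 bases, took 30.2% of them over all libraries and 0% to 100% in single libraries, and PRAME-204, of 567 bases, took 32.1% in the FASN knockdown from regular medium, 6.44% in its controls and none in either group after CSM. Such splits rest on 18 to 446 PRAME counts a library, and their part in the scale difference was not tested. Its transcripts are distinct, since 99.5% of their stretches of 31 bases are in no other gene's transcripts.

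CSM itself called no member. In control cells PRAME was at a log2 fold change of -0.59 after CSM (95% interval -1.30 to 0.11, edgeR adjusted p = 1.00), with groups that overlap in CPM. In TPM these groups did not overlap, at 1.98 ± 0.372 (SD, n = 4) after CSM against 3.71 ± 0.399 (SD, n = 3). The share of all genes without overlap in TPM was not computed, and limma on log2(TPM + 1) did not call PRAME (-0.67). In CPM of FASN knockdown cells PRAME was at -1.25 (SE 0.35), the groups did not overlap, and it was not called (edgeR adjusted p = 0.579, two-sided exact permutation p = 0.0571, the smallest for 4 against 3). All tested genes gave 0.0% called in both of these comparisons, and 1.49% of them were lower without overlap after CSM in knockdown cells. The log2 fold change of the knockdown after CSM, less that in regular medium, came to -0.66 for PRAME (95% interval -1.69 to 0.37, edgeR adjusted p = 0.945), so the fall was not shown to differ between the media. No gene was called for that difference either, 0.0% of those tested. These comparisons share groups with those above. Of the 9 tested members 0 had an unadjusted p below 0.05 for CSM in control cells, 1 for CSM in knockdown cells and 0 for the difference, where 1.4%, 6.66% and 5.22% of all tested genes did. DESeq2 called 0 members in each, and 0.0266%, 0.23% and 0.031% of all genes.

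Of 64 annotated genes within 250000 bases of PRAME, most of them immunoglobulin segments, 4 were tested and none was called in either medium. The pseudogene BMS1P20 was the highest of these, at 16.4 CPM in controls from regular medium. A non-coding gene that overlaps PRAME at its start averaged 0.138 CPM ± 0.0850 in these controls and 0.329 CPM ± 0.0623 in the knockdown (SD, n = 3 each). No source used here states whether counting was by strand.

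The 5 expressed MAGE genes were abundant in all 14 libraries. In TPM, which compares genes per length, the mean over all libraries was 49.5 for MAGEA4, 41.8 for MAGEA6, 32.3 for MAGEA10, 31.7 for MAGEC2 and 14.7 for MAGEA3, against 1.73 for PRAME. MAGEA4 was thus above 89.7% and MAGEA6 above 87.0% of the expressed protein-coding genes. The libraries of MAGEA4 (27.5 to 81.1 TPM), MAGEA6 (19.0 to 57.0), MAGEA10 (8.50 to 68.8) and MAGEC2 (16.9 to 43.7) overlap in their ranges over libraries. The range of MAGEA3 (7.54 to 22.9) overlaps those of MAGEA6, MAGEA10 and MAGEC2 but lies below that of MAGEA4. Within libraries the order was more regular: MAGEA4 was above MAGEA10 in 14 of 14, above MAGEC2 in 12 and above MAGEA6 in 10, and MAGEA6 was above MAGEA10 and above MAGEC2 in 13 each. MAGEA10 was above MAGEC2 in 6 of 14, and MAGEA3 was the lowest of the 5 in all 14.

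MAGEA6 (ENSG00000197172.11, chromosome X, 152766136 to 152769747) and MAGEA3 (ENSG00000221867.9, chromosome X, 152698752 to 152702347) encode near-identical proteins that with TRIM28 direct the breakdown of AMP-activated kinase. MAGEA6 had 82.4, 101 and 83.0 CPM in control libraries and 112, 108 and 45.6 CPM in the FASN knockdown. After CSM it had 75.3, 98.6, 158 and 93.7 CPM in controls and 50.1, 79.6, 62.2 and 73.0 CPM in libraries labelled FASN knockdown. The groups overlap in both media, and the highest library was replicate 3 of the control after CSM, one of those over 15% 7SL. MAGEA3 had 20.3, 29.1 and 30.6 CPM in controls against 27.6, 40.7 and 24.3 CPM in the knockdown. After CSM it had 20.2, 22.9, 53.2 and 30.4 CPM in controls against 23.0, 32.5, 16.8 and 19.1 CPM. Their longest transcripts agree in 98.6% of bases, and only 28.4% of the 31-base stretches of MAGEA3 and 30.3% of those of MAGEA6 are in no other gene, so the split between the copies is uncertain. MAGEA3 took 18.8% to 34.8% of their joint counts. Summed, the pair had a log2 fold change of 0.04 in regular medium and of -0.61 after CSM (edgeR adjusted p = 0.234).

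MAGEA4 (ENSG00000147381.12, chromosome X, 151912509 to 151925170), which binds the ligase RAD18, had 81.8, 74.7 and 73.9 CPM in control libraries and 96.9, 123 and 60.3 CPM in the FASN knockdown. After CSM it had 70.3, 90.7, 178 and 81.8 CPM in controls and 48.8, 72.2, 70.0 and 83.5 CPM in libraries labelled FASN knockdown. The knockdown libraries thus lay on both sides of the controls in regular medium and overlapped them after CSM. Of its 31-base stretches 92.1% are in no other gene, and the antisense gene MAGEA4-AS1 overlaps it at 2.67 to 3.97 CPM in the group means, so reads in the overlap cannot be told apart without strand.

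MAGEC2 (ENSG00000046774.10, chromosome X, 142202345 to 142205290), which also binds TRIM28, has 1 transcript, 97.1% distinct in the same measure. It had 70.4, 102 and 123 CPM in control libraries and 96.6, 118 and 47.6 CPM in the FASN knockdown. After CSM it had 68.3, 93.8, 124 and 98.3 CPM in controls and 47.8, 74.7, 45.2 and 63.6 CPM in libraries labelled FASN knockdown, of which 3 lay below the lowest control. MAGEA10 (ENSG00000124260.12, chromosome X, 152133310 to 152138578), a source of T cell epitopes, overlapped between the groups in both media. It had 74.8, 76.3 and 60.7 CPM in controls and 84.4, 75.1 and 80.4 CPM in the knockdown, then 72.4, 74.1, 119 and 74.5 CPM against 55.1, 77.0, 65.8 and 69.5 CPM after CSM.

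**Figure D3:**
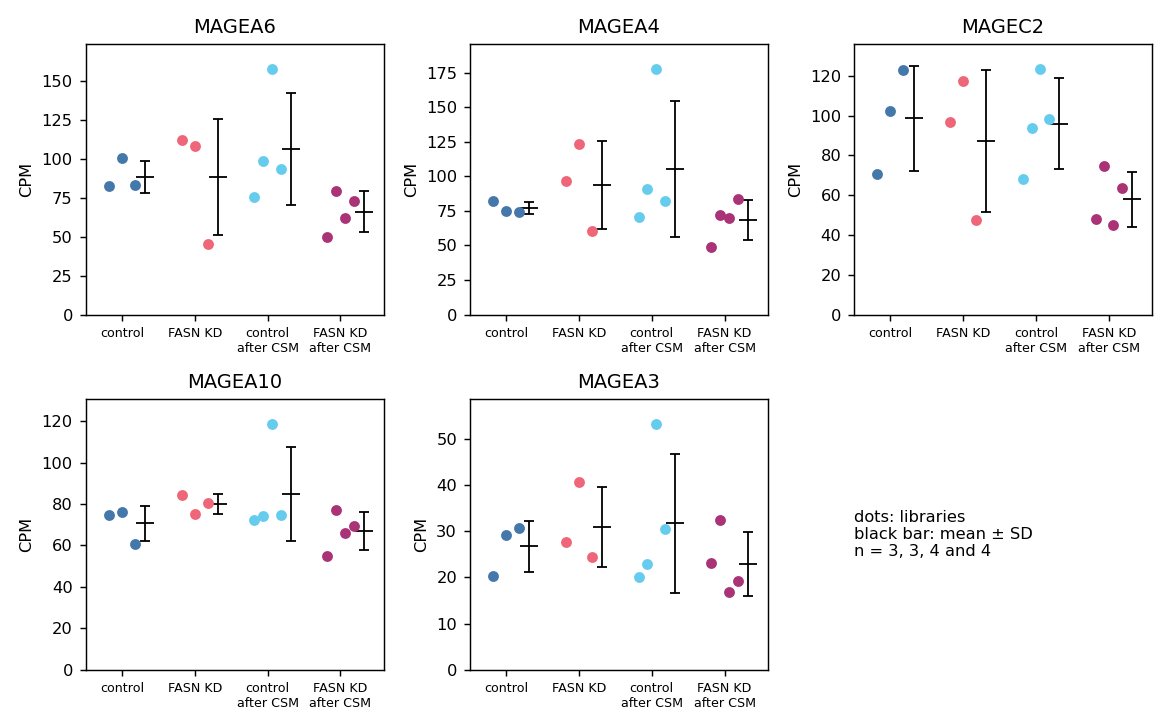
CPM of the 5 expressed MAGE genes in each library by group; dots are libraries and black bars the mean ± SD (n = 3, 3, 4 and 4). For each gene the highest control after CSM is replicate 3, at 158 CPM for MAGEA6 and 119 CPM for MAGEA10, and the groups overlap within each medium.

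None of the 5 was called in any comparison. In regular medium their log2 fold changes ran from -0.18 for MAGEC2 to 0.28 for MAGEA4, with 3 positive and 2 negative and a median of 0.18, against a median of 0.02 over all tested genes. After CSM all 5 were negative, from -0.73 for MAGEC2 (95% interval -1.34 to -0.13, edgeR adjusted p = 0.192) to -0.35 for MAGEA10 (95% interval -0.75 to 0.06, edgeR adjusted p = 0.341), with a median of -0.62 against 0.01 over all genes. MAGEA6 was at -0.68, MAGEA4 at -0.62 and MAGEA3 at -0.47. In regular medium 0 of the 5 and after CSM 3 had an unadjusted p below 0.05, against 9.08% and 18.5% of all tested genes. DESeq2 called 0 of the 5 in both media, and 1.5% and 6.48% of all genes. For CSM in control cells the 5 were at -0.04 to 0.45, for CSM in knockdown cells at -0.59 to -0.26, and for the difference of the knockdown between media at -0.90 to -0.52, with edgeR adjusted p of 0.782 or more in each case. Without the libraries over 15% 7SL the median after CSM was -0.23, and the values ran from -0.58 to -0.10. On log2(TPM + 1) 4 of the 5 turned positive after CSM (-0.03 to 0.32), where the median of all genes rose by 0.52, so that relative to it all 5 remained lower, by -0.55 to -0.20. The plot of fold changes sets the 5 beside PRAME.

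**Figure D4:**
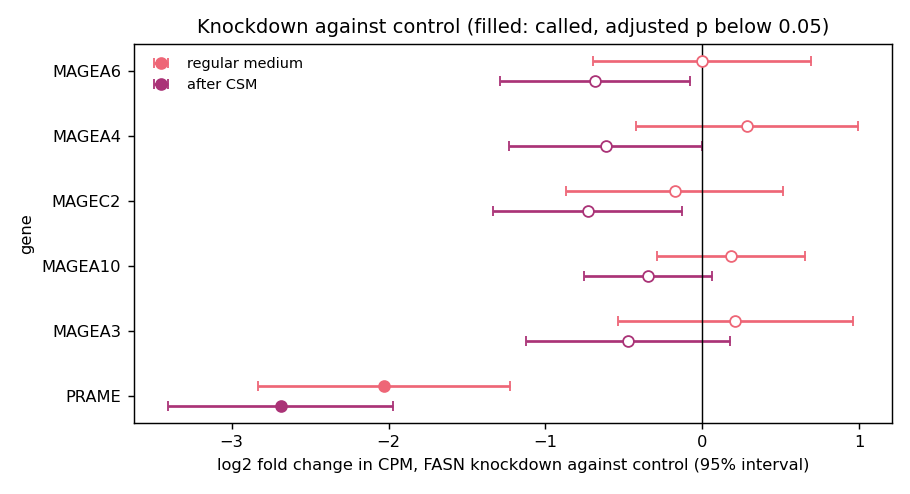
log2 fold change in CPM of FASN knockdown against control with its 95% interval for the 6 expressed members, in regular medium and after CSM; filled points were called at an adjusted p below 0.05. PRAME lies at -2.03 and -2.69 and was called in both, and the MAGE genes lie between -0.73 and 0.28 and were not.

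The summed level of the 5 MAGE genes differed between scales in the libraries rich in 7SL. The sum was highest in CPM in replicate 3 of the control after CSM (632 CPM, 16.3% 7SL) and replicate 2 of the FASN knockdown (465 CPM, 25.6% 7SL). On plain totals without TMM factors the first stayed the highest at 492.5 CPM, while the second was at 347.0 CPM, below 7 of the other libraries. In TPM that knockdown library had the lowest sum of all 14 (79.4), and that control had the lowest of its group (142, beside 174 to 204). The 3 libraries with the least 7SL, all labelled FASN knockdown after CSM, had 225, 260 and 309 CPM and 189, 210 and 246 TPM. The part of 7SL in the levels of these genes was not tested.

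**Figure D5:**
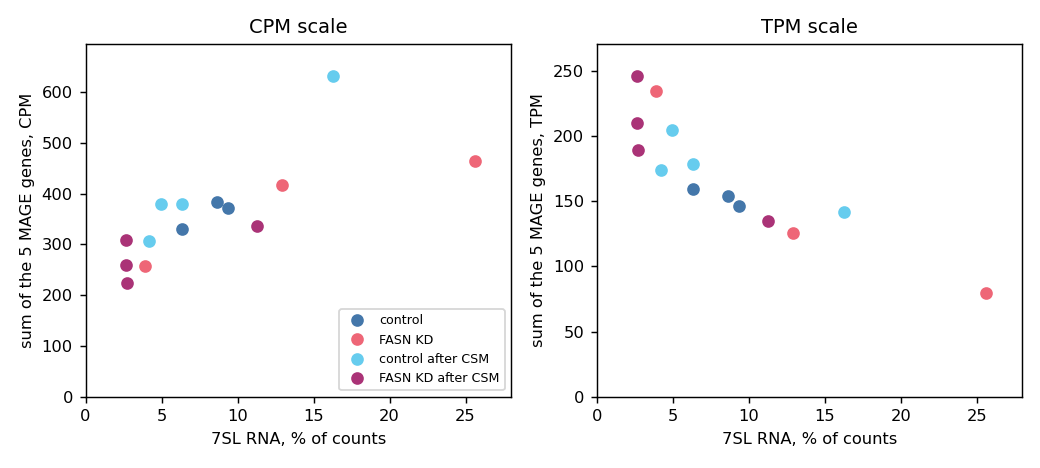
Sum of the 5 expressed MAGE genes against the share of counts on 7SL RNA, 1 dot per library coloured by group, in CPM on the left and TPM on the right. The library with 25.6% 7SL is at 465 CPM, second highest, and at 79.4 TPM, the lowest.

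Some of the MAGEA genes below 1 CPM stood between expressed ones on the chromosome. MAGEA3 and MAGEA6 lie 63789 bases apart, and between them are MAGEA2B, MAGEA12, MAGEA2 and 3 CSAG genes with 12 to 83 counts each over the 14 libraries. Within 250000 bases 6 genes were tested around MAGEA4, 5 around MAGEA10, 5 around MAGEA3 and 4 around MAGEA6, some of them expressed members themselves. None of these was called in either medium, where 0.204% and 1.17% of all tested genes were. Around MAGEC2 0 of 5 genes were tested, so no call was possible there. Of 516 tested protein-coding genes of chromosome X, 7 were called in regular medium (1.36%) and 13 after CSM (2.52%), against 0.204% and 1.17% of all tested genes, with medians of 0.02 and -0.18. The sets are unlike, since only 14519 of the 22560 tested genes are protein coding. With protein-coding genes only in the fit, 12 of 14564 were called higher and 43 lower in regular medium, and 91 higher and 116 lower after CSM.

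Of 13 partner genes through which these proteins act 12 were expressed and tested, and none of the 12 was called by edgeR in either medium. They were TRIM27, TRIM28, TRIM31, HUWE1, PRKAA1, CUL2, ELOB, ELOC, RBX1, EZH2, RARA, RNF2 and BMI1, of which TRIM31 was not expressed. In regular medium HUWE1, a ubiquitin ligase gene, was at -0.33 (edgeR adjusted p = 0.725) and TRIM27, a RING ligase gene, at -0.30 (edgeR adjusted p = 0.756). After CSM PRKAA1, the kinase subunit degraded through MAGEA3 and MAGEA6, was at -0.66 (edgeR adjusted p = 0.122) and the Polycomb gene BMI1 at -0.71 (edgeR adjusted p = 0.160). An unadjusted p below 0.05 was found for 0 and 4 of the 12, against 9.08% and 18.5% of all genes. DESeq2 called 0 and 1, against 1.5% and 6.48%, and the median of the 12 was -0.10 and -0.51.

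Genes that control promoter methylation and chromatin, the known switches of these families, had no called member of 26 tested in edgeR, where 0.204% and 1.17% of all genes were called. The smallest p-values were those of ETS1, an ETS factor, at -0.57 and of CTCFL, itself a testis gene, at 2.24 in regular medium (edgeR adjusted p = 0.605 and 0.613), and of the deacetylase gene HDAC3 at -0.59 and the methyl-CpG reader gene MBD2 at -0.55 after CSM (edgeR adjusted p = 0.154 and 0.215). CTCFL was below 1 CPM in every group mean. An unadjusted p below 0.05 was found for 0 and 2 of the 26 (9.08% and 18.5% of all genes), DESeq2 called 0 in both media, and the median of the list was -0.08 and -0.03.

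The MAGE genes that are not restricted to testis, such as the MAGED genes, gave no edgeR call in either medium among 9 tested of 12. In regular medium 4 were positive and 5 negative, and after CSM all 9 were negative with a median of -0.33, an unadjusted p below 0.05 for 3 (18.5% of all genes) and a DESeq2 call for 1 (6.48% of all genes). MAGEE1 was at -0.95 after CSM (edgeR adjusted p = 0.0738) and -0.31 in regular medium (edgeR adjusted p = 0.849), NSMCE3, of the SMC5/6 complex, was at -0.52 after CSM (edgeR adjusted p = 0.219), and MAGEH1 was at 0.62 in regular medium (edgeR adjusted p = 0.835). Of 68 other cancer-testis genes, 14 were expressed and 20 tested, and none was called in either medium, where 0.204% and 1.17% of all genes were. The highest means were those of ATAD2, IL13RA2, KDM5B and TTK, at 130.7, 74.84, 72.95 and 59.09 CPM. The median gene of the list was at 0.016 CPM, and 18 had no counts. Normal tissue was not measured here, so the 14 are not a count of germline genes switched on. After CSM 4 of the 20 tested genes had an unadjusted p below 0.05, near the 18.5% of all genes, and in regular medium 0 did, and DESeq2 called 0 in both. CT45A5, one of several close copies, was at 1.28 (edgeR adjusted p = 0.162) and TDRD1, of germ cell granules, at 1.21 (edgeR adjusted p = 0.251) after CSM. PIWIL2 was at 0.89 and CT55 at 1.96 in regular medium (edgeR adjusted p = 0.608 and 0.709).

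Markers of other cells were counted from human transcripts only, so they do not measure host fibroblasts, leukocytes or endothelium. Of them THY1, on the fibroblast list, fell by 1.65 after CSM (SE 0.36, edgeR adjusted p = 0.0409), with groups that overlap. The call was lost for 7 of 8 omitted libraries, all but control replicate 1 (edgeR adjusted p reaching 0.117 when control replicate 3 after CSM was omitted). THY1 was 1 of 7 tested fibroblast markers called after CSM, where 1.17% of all genes were called. In each medium 3 of the 7 had an unadjusted p below 0.05, against 9.08% (regular medium) and 18.5% (after CSM) of all genes. DESeq2 called 2 of the 7 in each medium, against 1.5% and 6.48% of all genes. In regular medium THY1 was at -1.27 (edgeR adjusted p = 0.332). The smallest p-values of the list there were those of ACTA2, at 1.74, and PDGFRB, at -2.10 (edgeR adjusted p = 0.122 and 0.164). Of the 7 tested fibroblast markers 3 were positive and 4 negative in regular medium, and 4 positive and 3 negative after CSM. Summed over the 10 of that list the level was 31.7 to 37.9 CPM in controls, 39.3 to 46.3 CPM in the FASN knockdown, 33.5 to 50.6 CPM in controls after CSM and 16.7 to 37.8 CPM in libraries labelled FASN knockdown after CSM. The 10 leukocyte markers summed to 45.9 to 112 CPM, the 8 endothelial markers to 1.49 to 3.17 CPM and the 10 germ cell markers to 0.255 to 2.12 CPM in every library. Their part in the fall of PRAME was not tested.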

How the data were processed

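RNA of 14 xenograft libraries was measured. Per the submitters' processing notes FastQC, cutadapt and Salmon were used with GRCh38; no version or annotation is stated. The authors deposited expected counts and TPM per transcript with, per the file headers, transcript length and effective length. Expected counts were summed per gene and rounded. edgeR 4.0.16 (R 4.3.3) tested 22560 genes (TMM, filterByExpr, minimum count 10, minimum total 15) in one quasi-likelihood fit with 4 group coefficients; calls are at a Benjamini-Hochberg adjusted p below 0.05 over all tested genes. Permutation tests used scipy 1.17.1. Coordinates are from GENCODE 29. On simulated data the fit was checked for known changes. Members, lists and alternatives were chosen with earlier results of these data known. Every expressed or called member is named, the others by counts and the 3 highest. Of each list other than the cell markers, the called genes or the 2 with the smallest p are named for the knockdown in each medium. Alternatives used DESeq2 1.42.0, limma 3.58.1, other scalings and filters, and omission of libraries; omission of FASN knockdown replicate 4 after CSM together with the 7SL-rich libraries was added after seeing the data. Protein sequences were not used here, and 1 gene of the lists is not reported here.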

Additional observations from a re-analysis of the deposited data

Results flagged for a closer look

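Single libraries stood apart from their group of 4 in 3 places by Dixon's 95% criterion on the gap to the nearest library. For normally distributed values chance meets it in about 1 in 20 groups. That rate need not hold for MAGEC3 and MAGEA1, whose counts here are near 0. MAGEA10 was at 118.7 CPM in replicate 3 of the control after CSM, a library with 16.3% 7SL, beside 72.4 to 74.5 CPM in the other 3. Among the 4 libraries titled FASN knockdown with CSM, MAGEC3 was at 0.296 CPM in replicate 1 (10 counts) and at 0 to 0.028 CPM in the others. MAGEA1 was at 0.285 CPM (14 counts) in replicate 4 (FASN at 111% of control) and at most 0.034 CPM in the others.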

How the results depend on the processing

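The number of expressed members was 6 under every scaling, omission and threshold tried except 0.5 CPM, which gave 9. In regular medium the 1 called member, PRAME, was not called, giving 0, with upper-quartile factors, only the groups of the contrast, the replicate block, both limma fits on TPM, the length offset, and without the libraries over 15% 7SL with or without FASN knockdown replicate 4 after CSM; leaving out 1 library gave 0 to 1. After CSM the count was 2 with DESeq2 and 0 in both limma fits. The log2 fold change of PRAME was negative under every alternative in both media. The cause of these changes was not tested.

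The replicate number as a block gave PRAME at -2.09 (edgeR adjusted p = 0.137) and -2.69 (adjusted p = 0.0123) after CSM, and ended the call of THY1 (adjusted p = 0.129). Same-numbered libraries correlated over 0.1 in 7 of 19 pairs (-0.51 to 0.39) and 0 of 14 libraries correlated best with its own number, so the numbers were not taken to pair them.

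FASN in regular medium (-1.94) was not called with only those groups (-1.92), the block (-1.95), limma on log2(TPM + 1) (-1.88) or log2(TPM + 0.1) (-1.96), the length offset (-1.66) and without the libraries over 15% 7SL (-1.84), and was at -2.07 to -1.73 without 1 library. Omitting any of the 6 libraries of the contrast ended the call (edgeR adjusted p from 0.0549 to 0.136). After CSM FASN, -0.57 and not called, was 0.19 in both limma fits, where the median of all genes rose by 0.52 and 0.64, so relative to it FASN was at -0.33 and -0.45.

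Values near 0 changed sign. MAGEA6 in regular medium, -0.0016 as reported, was 0.020 with DESeq2 and with relative log expression, 0.019 with 2 CPM in 3 libraries, 0.022 with protein-coding genes only, 0.021 with only the groups of the contrast, 0.031 with upper-quartile factors, 0.0053 without 7SL counts, 0.0028 with the block, 0.0074 with the length offset, and -0.22 to 0.28 without 1 library. Without 1 library MAGEC2 was at most 0.091 (without FASN knockdown replicate 3) and MAGEA3 was -0.016 (without knockdown replicate 2) to 0.33. Without both 7SL-rich libraries MAGEC2 was -0.449 and MAGEA3 -0.0355, and with knockdown replicate 4 after CSM omitted too they were -0.448 and -0.0349. In limma with 1 and 0.1 TPM added MAGEA3 was -0.090 and -0.11 and MAGEA10 -0.17 and -0.19. After CSM the same 2 fits gave 0.031 and 0.031 for MAGEA6, 0.15 and 0.15 for MAGEA4, 0.32 and 0.33 for MAGEA10 and 0.29 and 0.31 for MAGEA3, and 0.046 (1 TPM added) for the difference of PRAME between media.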
